A study of Capra hircus with 3 samples.

Results

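Myeloid cells of fetal goat skin were chosen by their own transcripts, and 117 of 20676 cells qualified. A cell was a member when it had a transcript of at least 4 of 12 genes: CD68, CSF1R, AIF1, C1QA, C1QB, C1QC, LAPTM5, TYROBP, FCER1G, MRC1, CD163 and CD14. It also had to hold transcripts of fewer than 2 of the mast cell genes CPA3, MS4A2, HPGDS and HDC, and this second condition removed 0 cells. Of the 12 genes, 11 were used, since FCER1G was not found in the table under that symbol. Of 6849 cells at E60, 91 were members, as were 15 of 6931 E90 cells and 11 of 6896 E120 cells. As shares of each library this made 1.33% (95% exact binomial interval 1.07 to 1.63), 0.216% (0.121 to 0.357) and 0.160% (0.0797 to 0.285), and the intervals cover counting error only. The interval of E60 lay above both later intervals, which overlapped each other.

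The cells came from dorsal skin of Northern Shaanxi White Cashmere goat fetuses at embryonic days 60, 90 and 120, with 1 library per stage. Each library pooled cells of at least 2 fetuses before barcoding by droplet-based 3′ sequencing, so the animals cannot be separated. Whole skin was digested with collagenase IV and broken up by pipetting at E60 and E90, whereas at E120 follicles were picked out after collagenase and dissociated with TrypLE. Stage, library, fetuses and, at E120, dissection and enzyme cannot be told apart in any comparison between stages, and no test between stages was possible.

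Macrophages enter fetal tissues early, from yolk sac and fetal liver progenitors, and persist there as resident cells that clear dying cells and debris, store iron and secrete growth factors. Monocytes and dendritic cells arrive from the blood, and dendritic cells and some macrophages carry MHC class II proteins, which display peptides to helper T cells. In skin, macrophages lie in the dermis along vessels and around hair follicles, and Langerhans cells settle in the epidermis.

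The number of transcripts counted per cell, as unique molecular identifiers (UMIs), differed between the libraries. The median member held 8865, 4098 and 6113 UMIs at the successive stages, and the median other cell 8578, 3713.5 and 13068, so E120 members were shallower than their neighbours. Levels are given as CPM, a gene's UMIs summed over the cells of a group and scaled to 1000000 UMIs in all. The members' sums held 914163, 86141 and 77783 UMIs at E60, E90 and E120, so that 3 UMIs, the floor used for genes with none, equalled 3.28, 34.8 and 38.6 CPM. Between 9 and 13 cell barcodes occurred in each pair of libraries, and 0 of the members' barcodes occurred in another library.

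**Figure D1:**
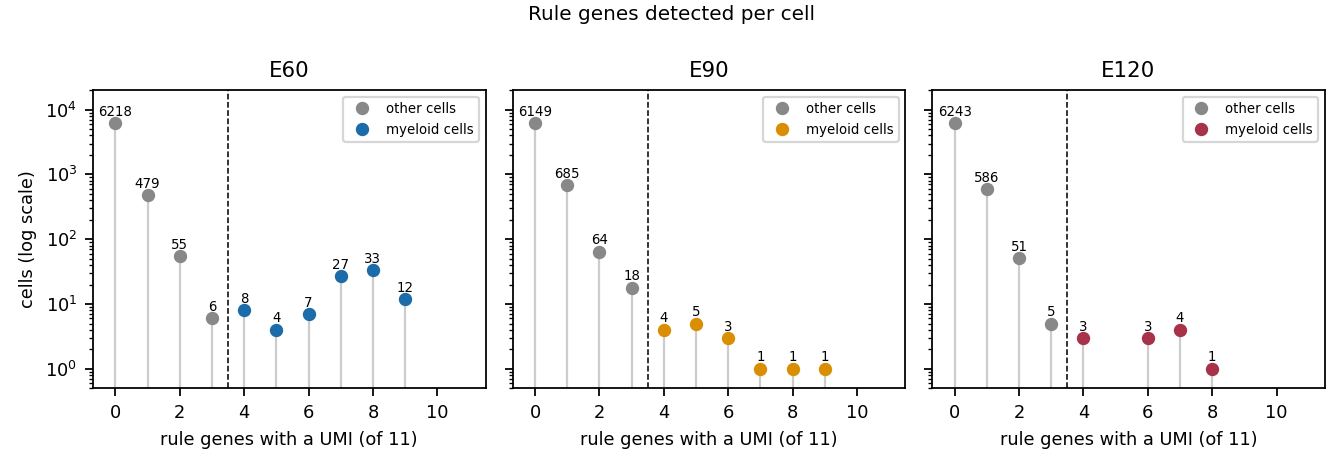
Cells of each library by the number of the 11 rule genes with a UMI (horizontal axis) and the number of cells (vertical axis, log scale); coloured points are myeloid cells and grey points other cells, with the dashed line at the limit of 4 genes. At E60 the counts fall to 6 cells at 3 genes and rise again to 33 cells at 8 genes, whereas at E90 18 cells lie at 3 genes and at most 5 cells at any higher number.

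The rule separated cells most clearly at E60. There, 6 cells held 3 of the rule genes, 8 held 4, and 79 of the 91 members held at least 6, with a median of 7. At E90 the median member held 5 rule genes, 18 cells stood just outside at 3 genes, and 9 of 15 members held only 4 or 5. At E120 the median was 6 genes, 5 cells stood just outside, and 3 of 11 members held exactly 4 genes while the other 8 held at least 6. In the other direction, 90.8%, 88.7% and 90.5% of all cells of the 3 libraries held none of the rule genes. When each member was thinned to 2000 UMIs, 69 of 91, 8 of 15 and 9 of 11 still held 4 rule genes, so membership depended on depth. The median number of all genes per member was then 692, 742 and 755 at the 3 stages, against 1789, 1259 and 1683 before thinning.

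Complement C1q led the rule genes, whose levels chose the cells and are given as a description. C1QA, which with C1QB and C1QC builds the C1q molecule that starts the classical complement pathway, had 0, 9 and 211 UMIs in the lowest, median and highest E60 member. The E90 members had 0, 3 and 21 UMIs, and the E120 members 1, 39 and 153. Its summed level was 1324 CPM at E60, 964 CPM at E90 and 6570 CPM at E120. C1QB followed the same order, with 1273, 743 and 4499.7 CPM. AIF1, an actin-binding protein of macrophages, lay at 964, 569 and 707 CPM, and LAPTM5, a lysosomal membrane protein of white blood cells, at 795, 755 and 771 CPM. The C1q genes thus spread much further between the stages than AIF1 and LAPTM5.

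The remaining rule genes were uneven. CD163, the receptor for haemoglobin-haptoglobin complexes, had 635 CPM at E60, 197 at E90 and 51.4 at E120, and was found in 78 of 91, 4 of 15 and 2 of 11 members. MRC1, the mannose receptor, had 427, 499 and 167 CPM. CD68, a lysosomal glycoprotein, was in 57 of 91 members at E60, in 0 of 15 at E90 and in 3 of 11 at E120. CSF1R, the receptor for macrophage colony-stimulating factor, was found in only 9, 3 and 3 members, and TYROBP, a signalling adaptor of myeloid receptors, in 15, 3 and 0. CD14 had 2, 3 and 0 UMIs in all members of the 3 stages. Of the 5 genes taken as markers of the cells, C1QA, C1QB and LAPTM5 were thus common and CSF1R and TYROBP sparse.

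Several white blood cell genes that the rule did not use were higher in the members at each stage. A gene counted as higher or lower when its level differed at least 2-fold from that in the other cells of the same library, with at least 100 CPM and 10 UMIs in the higher sum. Of all genes measured that well, 15.7% were higher in members at E60, 15.3% at E90 and 21.8% at E120. A list of further myeloid and white blood cell genes named 32, of which 24 were in the table. Of these, 8, 9 and 8 passed the minimum at E60, E90 and E120, and 8, 9 and 8 were higher. They included CTSS, a lysosomal protease that trims antigens, LCP1 and CORO1A, which bind actin in blood cells, and the complement receptor C5AR1. CTSS, LCP1, CORO1A and C5AR1 lay under 100 CPM in other cells at each stage. They could pass the minimum only by being higher in members, so the counts of this list describe the members and test nothing. CTSS had 131, 348 and 604 CPM in members at E60, E90 and E120, against 0.764, 2.98 and 0.847 CPM in other cells. LCP1 had 225, 697 and 656 CPM, against 4.68, 7.88 and 4.61 CPM. PTPRC, the CD45 protein of all white blood cells, was present in 27 of 91, 6 of 15 and 8 of 11 members and in 0.474%, 0.304% and 0.450% of other cells. Some defining genes were at or near 0: SPI1, the lineage's master transcription factor, had 0, 1 and 0 UMIs, and CD53 had 1, 0 and 0. Of the 24 genes, 2, 5 and 9 had no UMI in members at the 3 stages.

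The members fell into cells with much SPP1 and cells with MHC class II transcripts. SPP1 encodes osteopontin, a secreted matrix and cytokine-like protein of macrophages. DRB3 encodes a beta chain and HLA-DRA the alpha chain of MHC class II DR, and CAHI-DQA2 an alpha chain of the related DQ molecule. None of these genes was part of the rule, and the limits of 20 UMIs for SPP1 and 5 UMIs for DRB3 were chosen after their values had been seen. At E60, 77 of 91 members had SPP1 without DRB3, 13 had DRB3 without SPP1, 0 had both and 1 had neither. Of the 15 E90 members, 1 had SPP1, 10 had DRB3, 0 had both and 4 had neither. Of the 11 E120 members, 8 had DRB3, 0 had SPP1 and 3 had neither. Limits of 10 and 3 UMIs moved 1 further E90 member, giving 2 cells with SPP1 and 3 with neither. Limits of 50 and 10 UMIs left 73 E60 cells and 1 E90 cell with SPP1, and 13, 8 and 8 cells with DRB3 at the successive stages. Under either pair of limits 0 members had both. The lowest of the 13 E60 cells had 14 DRB3 UMIs and the highest of the other E60 members 2.

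**Figure D2:**
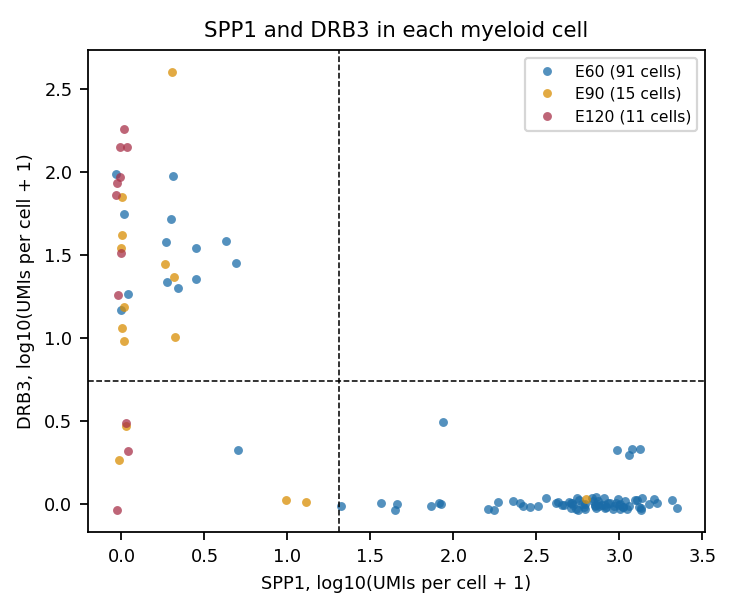
Each point is 1 myeloid cell, with the log10 of its SPP1 UMIs plus 1 on the horizontal and of its DRB3 UMIs plus 1 on the vertical axis, spread slightly to separate equal values; colours mark the stage and dashed lines the limits of 20 and 5 UMIs. The upper right field holds 0 cells, the lower right field 77 cells of E60 and 1 of E90, and the upper left field 13, 10 and 8 cells of E60, E90 and E120.

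At E60 the leading gene outside the rule was SPP1. It had 0, 590 and 2150 UMIs in the lowest, median and highest member and made up 6.27% of all UMIs of the members, with 18.3% in the highest cell. Its level was 62680.3 CPM (exact Poisson interval 62168.1 to 63195.6) in members and 127 CPM in the other E60 cells, 493-fold apart (counting interval 482 to 505). At least 1 SPP1 UMI was also found in 57.0% of other cells and in 57.2% of the 6049 cells with at least 6 fibroblast markers, whose median depth of 8605 UMIs was close to that of the members. A few SPP1 UMIs therefore did not set a cell apart in this library, whereas at least 20 UMIs were found in 77 members and 39 of 6758 other cells.

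Receptors and complement genes filled most of the other leading places at E60. TREM2, a lipid receptor of macrophages that signals through TYROBP, had 0, 5 and 20 UMIs in the lowest, median and highest member, with 529 CPM against 0.437 CPM in other cells, 1213-fold apart (829 to 1844). TIMD4, a receptor for phosphatidylserine on dying cells, had 229 CPM against 0.109 CPM and was found in 59 of 91 members. C5AR1, the receptor for the complement fragment C5a, had 195 CPM against 0.140 CPM. C3, the central complement component, had 665 CPM against 1.045 CPM, and CFP, or properdin, which stabilises the alternative pathway's convertase, 422 CPM against 0.624 CPM. C3 and CFP were each found in 80 of 91 members and in under 1% of other cells (0.962% and 0.592%).

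The chemokine CCL8, which attracts monocytes, had 2251 CPM in E60 members against 9.56 CPM in other cells, with 0, 17 and 108 UMIs in the lowest, median and highest member. CXCL8, the neutrophil chemoattractant interleukin 8, had 598 CPM against 0.936 CPM, and was found in only 39 of 91 members. VNN1, a pantetheinase, had 309.6 CPM against 0.109 CPM, and VAV1, a signalling protein of blood cells, 217 CPM against 0.483 CPM. In all 10 leading genes of E60 the counting intervals of members and other cells lay far apart. The leading genes were chosen for the highest ratios of members over other cells. That choice favoured such gaps, so they describe the genes and test nothing.

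The list of 12 resident macrophage genes summed to 6282 CPM in the 77 E60 cells with SPP1 and to 2399 CPM in the 13 with DRB3, but its genes did not all follow that order. LYVE1, a hyaluronan receptor of lymphatic vessels and perivascular macrophages, had 1144 CPM in the 77 cells, with UMIs in 73 of them. In the 13 cells with DRB3 it had 156 CPM, and all 20 UMIs came from 1 cell. CD163 had 727.5 CPM against 164 CPM. HMOX1, which breaks down haem, had 1992 CPM against 133 CPM, although 446 of its 1531 UMIs in the 77 cells were in 1 cell. SLC40A1, the iron exporter ferroportin, had 1009.9 CPM against 78.15 CPM. These 4 genes all serve the uptake or handling of matrix, haem or iron.

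DAB2, an endocytic adaptor, had 3077 CPM in the 77 cells with SPP1 and 328 CPM in the 13 cells with DRB3. LGMN, a lysosomal protease, had 962 CPM against 46.9 CPM. The growth factor IGF1 had 398 CPM in the cells with SPP1 and 0 UMIs in those with DRB3. NRP1, a co-receptor for semaphorins and vascular endothelial growth factor, had 610.4 CPM against 70.3 CPM. Other genes of the resident macrophage list were higher in the cells with DRB3: F13A1, the clotting factor XIII A chain, had 575 CPM against 914 CPM, and TIMD4 208 CPM against 383 CPM.

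The 13 E60 cells with DRB3 had genes that were almost missing from the 77 others. S100A4, a calcium-binding protein of motile cells and monocytes, had 3751 CPM in them and 3.90 CPM in the cells with SPP1. CAHI-DQA2 had 1133 CPM against 1.301 CPM, and HLA-DRA 563 CPM against 0 UMIs. CD1E, which helps load lipid antigens in dendritic cells, had 453 CPM against 0 UMIs, and IL1B, the inflammatory cytokine interleukin 1 beta, 508 CPM against 0 UMIs, with 41 of its 65 UMIs in 1 cell. FCN1, a lectin of monocytes, was found in 6 of the 13 cells and in 0 of the 77. Summed over DRB3, CAHI-DQA2 and HLA-DRA, the lowest of the 13 cells had 20 UMIs and the highest of the 77 had 2. DRB3 divided the cells and is part of this sum, so the gap was partly set by that division. Reads of such paralogous MHC genes could be assigned to the wrong copy, so their single values are uncertain while the sum is less so.

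The C1q genes were not tied to either kind of cell. C1QA had 975 CPM in the E60 cells with SPP1 and 3470 CPM in those with DRB3, and in the latter 211 of 444 UMIs came from 1 cell and 3 cells had none. AIF1 had 939.6 CPM and 1235 CPM. The median depth of the groups was 8865 and 8761 UMIs, so neither was the shallower by much. CD207, the langerin of Langerhans cells, had 0 UMIs in members of all 3 stages.

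**Figure D3:**
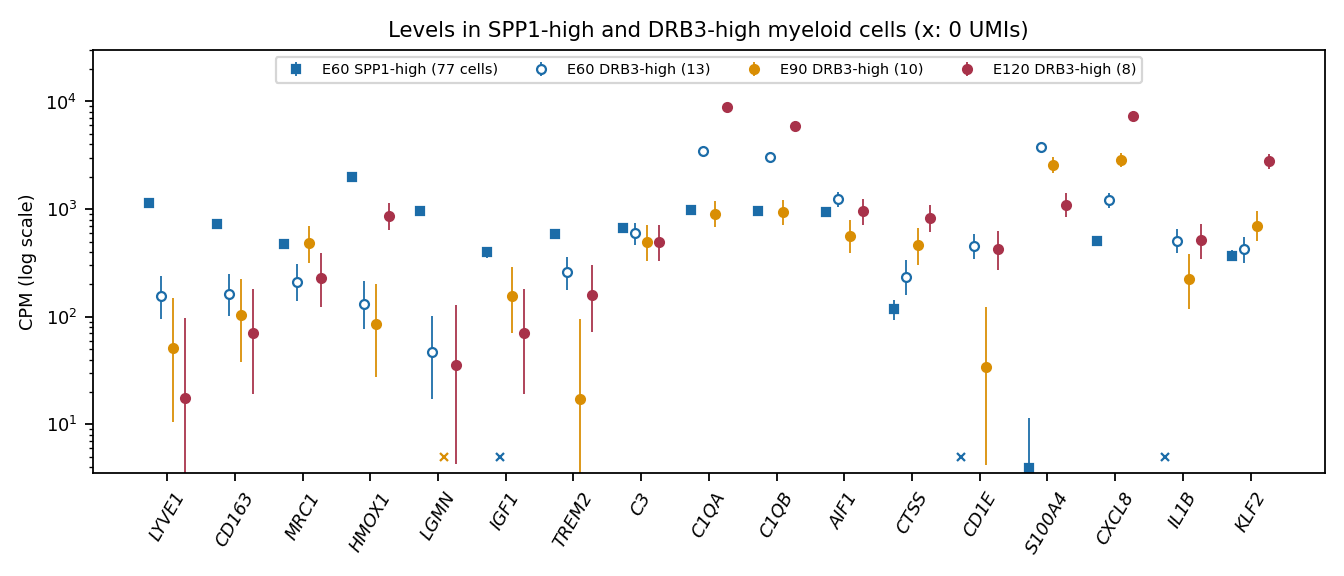
Levels in CPM (vertical axis, log scale) of 17 genes in the E60 cells with SPP1 and in the cells with DRB3 of each stage; symbols are summed levels, bars exact Poisson intervals (counting error only) some cut off at the lower edge, and crosses mark genes with 0 UMIs. LYVE1, CD163 and LGMN are highest in the 77 E60 cells with SPP1, S100A4 lies at 3.90 CPM there and at 1094 (with 50 of 62 UMIs in 1 cell) to 3751 CPM in the other groups, and C1QA is highest at E120.

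At E90 MHC class II genes and CXCL8 had the highest levels among the 10 leading genes. DRB3 had 0, 10 and 387 UMIs in the lowest, median and highest of the 15 members. Its level was 7290.4 CPM against 46.0 CPM in other cells, 159-fold apart (144 to 174), and 3398 CPM without the cell with 387 UMIs. HLA-DRA had 1207 CPM against 5.76 CPM, and CAHI-DQA2 3459 CPM against 26.7 CPM. A DRB3 UMI was found in 7.20% of other cells and in 7.75% of the 4261 cells with at least 6 epithelial markers, at median depths of 3713.5 and 3786 UMIs, and in 12 of 15 members at 4098 UMIs. The high DRB3 counts were spread over 10 cells, although 1 cell held 61.6% of them.

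The other leading genes of E90 rested on fewer UMIs. CXCL8 had 0, 6 and 91 UMIs in the lowest, median and highest member and 3494 CPM against 23.3 CPM. C5AR1 was found in 14 of 15 members, with 615 CPM against 2.98 CPM. GPR183, an oxysterol receptor that guides dendritic and B cells, had 511 CPM against 3.48 CPM, and CD83, a surface protein of activated dendritic cells, 174 CPM against 0.530 CPM. CLEC6A, a C-type lectin that binds fungal sugars, had 151 CPM against 0.729 CPM, and VNN1 had 209 CPM against 0.9605 CPM. C3 had 383 CPM against 0.729 CPM, but 23 of its 33 UMIs were in 1 cell, without which it had 123 CPM. That cell also held all 154 CCL8 UMIs of the stage and 11 of 13 IL1B UMIs.

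A single E90 cell carried some of the transcripts described for the E60 cells with SPP1. It held 612 of the 635 SPP1 UMIs of the 15 members, 12 of the 17 LYVE1 UMIs and 7 of the 17 CD163 UMIs, and 0 UMIs of DRB3. Others were missing or few in it, with 0 UMIs of CCL8, 1 of TREM2 and 3 of HMOX1, while it had 81 of CXCL8 and 8 of IL10. It also had 9 rule genes, the most of the stage. Among the 10 cells with DRB3, LYVE1 had 51.5 CPM, CD163 103 CPM and LGMN 0 UMIs.

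At E120 MHC class II genes were again the leading genes. DRB3 had 0, 67 and 168 UMIs in the lowest, median and highest of 11 members, with 9706.5 CPM against 4.23 CPM in other cells, 2293-fold apart (2028 to 2597). CAHI-DQA2 had 5335 CPM against 2.197 CPM, and HLA-DRA 733 CPM against 0.3215 CPM. CTSS had 604 CPM, 714-fold above other cells (487 to 1037). DRB3 was found in 0.712% of other cells and in 0.614% of the cells with at least 6 epithelial markers. Those cells were deeper than the members, at a median of 15331.5 against 6113 UMIs.

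Cytokines and complement completed the list at E120. CXCL8 had 0, 31 and 102 UMIs in the lowest, median and highest member and 5387 CPM against 2.56 CPM. IL1B had 386 CPM against 0.03215 CPM, from 5 members, and CCL8 733 CPM against 0.354 CPM, from 3 members. IL10, an anti-inflammatory cytokine, had 874 CPM against 0.439 CPM, but 65 of its 68 UMIs were in 1 cell and the level without it was 43.2 CPM. CFD, the complement protease factor D, had 784 CPM against 0.911 CPM, and C3 had 360.0 CPM against 0.182 CPM. IL10 was thus a property of 1 cell, whereas DRB3 and CXCL8 were found in 10 and 9 of the 11.

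The members of the stages differed in MHC class II, resident macrophage and iron genes, among others, each pair of libraries taken as it was. Of all genes measured well enough, 18.8% were at least 2-fold higher at E90 than at E60 and 17.8% lower. The shares were 21.3% and 15.3% for E120 over E90, and 20% and 16.6% for E120 over E60. From the list of antigen presentation genes, 7 of 11 in the table passed the minimum for E90 over E60, and 6 were higher: CD74, HLA-DRA, DRB3, CD86, CTSS and IFI30. Their partner LGMN was lower. At E90, CD74 had 8 of its 12 UMIs in 1 cell and 56.4 CPM without that cell, and CD86 had 12 of its 20 UMIs in 1 cell. For E120 over E60, 4 of 5 were higher and LGMN was lower. The summed level of the list was 1756 CPM at E60, 9891 CPM at E90 and 12149 CPM at E120, against 120.5 CPM, 168 CPM and 54.6 CPM in other cells.

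DRB3 was 16.7-fold higher at E120 than at E60 (counting interval 15.0 to 18.7). CAHI-DQA2 was 21.7-fold higher at E90 than at E60 (17.7 to 26.6) and 33.4-fold higher at E120 than at E60 (27.6 to 40.6). HLA-DRA was 15.3-fold higher at E90 than at E60 (11.2 to 21.0). Without the E90 cell that held most of these UMIs, CAHI-DQA2 was 12.01-fold higher (9.44 to 15.3) and HLA-DRA 9.13-fold higher (6.25 to 13.3) at E90 than at E60. Both values lay below the counting intervals with that cell. In other cells the log2 ratio of DRB3 between E120 and E60 was -2.09, against 4.06 in members. Those other cells included 30 cells at E60 and 7 at E120 with at least 5 DRB3 UMIs. The part of such cells in the ratio of -2.09 was not tested. Within the cells with DRB3 alone, the level was 4087 CPM at E60, 10723 CPM at E90 and 13269 CPM at E120, and E90 had 387 of its 625 UMIs in 1 cell. DRB3 itself chose these cells, at 5 UMIs whatever the depth, so the 3 levels are only a description. The median depths were 8761, 3971.5 and 6199 UMIs.

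SPP1 and several resident macrophage genes were lower at the later stages. SPP1 was at least 1625-fold lower at E120, where it had 0 UMIs, than at E60. LYVE1 had 983 CPM at E60, 197 CPM at E90 and 12.9 CPM at E120, where 1 UMI remained, 76.5-fold below E60 (13.7 to 3025). Of 12 resident macrophage genes in the table, 4 outside the rule passed the minimum for E120 over E60, and 3 were lower: LYVE1, F13A1 and DAB2. Of all genes 16.6% were lower, and LYVE1, under 100 CPM at E120, could pass only by being lower there. The summed level of the list, rule genes included, was 5625 CPM at E60, 2995 CPM at E90 and 1041 CPM at E120. In other cells the list fell further, from 443 CPM at E60 to 23.7 CPM at E120, a log2 ratio of -4.17 against -2.43 in members. TIMD4 was called higher at E120 than at E90, with 15 against 6 UMIs. DAB2 was higher in members than in other cells at each stage, with 2633 CPM against 195 CPM at E60, 1369.8 CPM against 99.5 CPM at E90 and 373 CPM against 9.45 CPM at E120.

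Iron, haem and lysosomal genes also differed. TREM2 was 22.8-fold lower at E90 than at E60 (6.28 to 189), from 2 UMIs. HMOX1 was 18.2-fold lower at E90 than at E60 (9.23 to 42.3), and at E120 it had 656 CPM, with 33 of 51 UMIs in 1 cell. NRP1 was 15.1-fold lower at E90 than at E60 (5.14 to 73.5). FTH1, the ferritin heavy chain that stores iron, had 57, 382 and 848 UMIs in the lowest, median and highest E60 member, and levels of 36849 CPM at E60, 21894 CPM at E90 and 19079 CPM at E120. Against other cells it was 6.26-fold, 4.77-fold and 4.98-fold higher, so it set the members apart at each stage. Of 28 lysosomal and phagocytosis genes in the table, 7 passed the minimum for E90 over E60. Of these, 5 were lower (LGMN, GRN, LAMP2, PROS1 and TREM2), against 17.8% of all genes, and CTSS was higher, against 18.8%. TREM2 lay under 100 CPM at E90 and could pass only by being lower there.

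**Figure D4:**
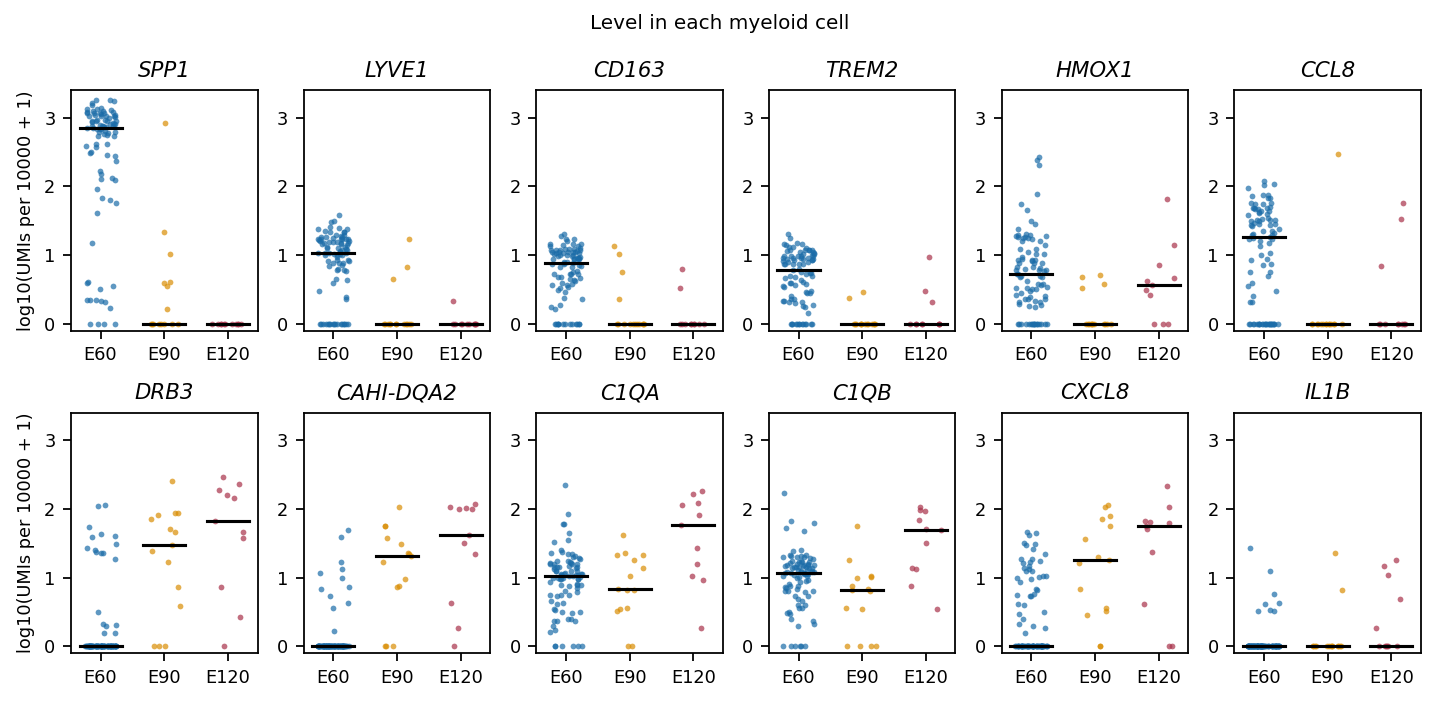
Levels of 12 genes in each myeloid cell as the log10 of UMIs per 10000 plus 1 (vertical axis), by stage; each point is a cell and each bar the median of 91, 15 and 11 cells. The E60 medians of SPP1, LYVE1, CD163, TREM2 and CCL8 lie above 0 while those of E90 and E120 are at 0, and for DRB3 and CAHI-DQA2 the order is the reverse.

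Few chemokines and cytokines were measured well enough. CXCL8 lay at 598, 3494 and 5387 CPM at E60, E90 and E120. CCL8 lay at 2251, 1788 and 733 CPM, and the value at E90 came from 1 cell. Of 22 chemokine, cytokine and receptor genes in the table, 6 passed the minimum for E120 over E60. Of these, CXCL8, CXCR4, IL1B, IL10 and OSM were higher and CCL8 was lower. IL10 was higher through 1 E120 cell with 65 of 68 UMIs. Without that cell it had 43.2 CPM at E120, against 52.5 CPM at E60. OSM, or oncostatin M, had 20 UMIs at E120, of which 15 were in 1 cell. CXCR4, the receptor of CXCL12, had 643 CPM at E120, from 6 of 11 members, against 51.4 CPM at E60.

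Immediate early and heat shock genes, which are known to rise when tissue is dissociated, moved with the same comparison. Their summed level was 13861 CPM at E60, 16067 CPM at E90 and 29287 CPM at E120 in members, and 11189.8 CPM, 15916 CPM and 11816 CPM in other cells. At E120, 7 of the 9 genes of the list that passed the minimum were higher in members than in other cells, against 21.8% of all genes. FOS was among them, with 10336.4 CPM against 2310.5 CPM. At E60 4 of 8 were higher, against 15.7% of all genes, and at E90 0 of 8, against 15.3%. The part of the listed genes in the levels of CXCL8, IL1B and the other cytokines was not tested. NFKBIA, an inhibitor of NF-kappaB, was 14.2-fold higher in members than in other cells at E60 and 11.3-fold higher at E120, and at E90 it had 4 UMIs.

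Of 12 interferon-induced genes in the table, 2 were measured well enough for E120 over E60, and both were higher, against 20% of all genes. IFI6 had 2186 CPM in E120 members, 35.9-fold above other cells (30.6 to 41.8), and 456 CPM and 337 CPM at E60 and E90. OAS1, which senses double-stranded RNA, had 308.6 CPM at E120, with 13 of 24 UMIs in 1 cell, 11.6 CPM at E90 and 121 CPM at E60. KLF2, a transcription factor of quiescent blood and endothelial cells, had 383 CPM at E60, 859 CPM at E90 and 2044 CPM at E120, and KLF4 156, 662 and 1131 CPM. In other cells KLF2 lay at 206 CPM, 331 CPM and 89.3 CPM, so at E120 it was 22.9-fold higher in members (19.4 to 26.8).

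Proliferation genes were concentrated in a few E60 cells, which were deeper than most members and also held fibroblast transcripts. TOP2A, needed to untangle DNA in mitosis, was found in 15 of 91 E60 members, with 40 of 127 UMIs in 1 cell, and had 139 CPM against 280 CPM in other cells. The 5 members with at least 9 TOP2A UMIs held 97 of the 127, and each had UMIs of 6 to 8 of the 9 fibroblast genes and 4 to 13 of COL1A1, a fibrillar collagen chain. The median E60 member had 4 of the 9 genes and 0 COL1A1 UMIs. Depth differed too: the 5 cells held 11531 to 22872 UMIs in all, against a median of 8865. The deepest E60 member, with 25040 UMIs, had 0 UMIs of TOP2A, 11 of COL1A1 and UMIs of 8 fibroblast genes. The parts of depth and of such transcripts in the TOP2A counts were not tested. CENPF, a kinetochore protein, was in 18 members, with 73 of 210 UMIs in 1 cell. Summed over 14 cell cycle genes, 13 of the 77 cells with SPP1 and 3 of the 13 with DRB3 had at least 10 UMIs, and the highest of the 77 had 141. Among the cells with DRB3 of E90 and E120, 0 of 10 and 1 of 8 had that many. The list summed to 733, 302 and 321 CPM in members of E60, E90 and E120, against 1052, 637 and 772 CPM in other cells.

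The stage comparisons also brought up genes of other cells of the same skin, and these values stand beside the myeloid ones. The 5 genes that were highest at E90 over E60 were KRT1, KRT10, KRT17, KRT4 and DSP, which build the keratin skeleton and desmosomes of epidermis. KRT1 had 4086 CPM in E90 members and 2028 CPM in other E90 cells, and 0 UMIs at E60. A KRT1 UMI was found in 15 of 15 E90 members and in 97.4% of other cells, with 1, 4 and 182 UMIs in the lowest, median and highest member. In 13 of the 15 members KRT1 had 49 UMIs or fewer, while 2 members with exactly 4 rule genes had 182 and 76. Those 2 cells had 0 UMIs of DRB3, CAHI-DQA2 and HLA-DRA. Summed over 16 epithelial genes, E90 members had 8544 CPM and other cells 8015 CPM. The 4 members with exactly 4 rule genes had 19894.0 CPM, and the 11 with more had 3627 CPM.

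At E120 hair follicle keratins were found in nearly all members but far below the other cells. KRT35, a hair shaft keratin, had 630.0 CPM in members and 5851.0 CPM in other cells, and KRT85 424 CPM against 6801 CPM. KRT71, of the inner root sheath, had 386 CPM against 4015 CPM, and FABP3.1 231 CPM against 2447 CPM. At E120, 7 of 7 epithelial genes that passed the minimum were lower in members, against 20.4% of all genes. The epithelial list summed to 1658.5 CPM in members and 20332.9 CPM in other cells. BAMBI, a pseudoreceptor that dampens TGF-beta signals, had 1633 CPM in members against 618 CPM in other cells, but 116 of its 127 UMIs were in the 3 members with exactly 4 rule genes.

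Those 3 cells of E120 differed from the other 8 members. They had 1 to 5 UMIs of C1QA and 0 to 2 of DRB3, against 13 to 153 and 17 to 168 in the other 8. The list of myeloid genes outside the rule summed to 568 CPM in them and to 6564 CPM in the other 8. They held 52 of 54 UMIs of CRABP2, a retinoic acid carrier, all 60 UMIs of IGFBP5, which binds insulin-like growth factors, and all 20 of WNT5A, a secreted Wnt protein. By rule they were myeloid cells, while their leading genes were not those of the other 8.

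Stromal transcripts were highest at E60. The 9 fibroblast genes in the table summed to 4116 CPM in E60 members against 18741 CPM in other cells, to 1463 CPM against 4337.5 CPM at E90, and to 578.5 CPM against 469 CPM at E120. The E120 members' sum held 45 UMIs, of which 28 were in 1 cell, and the median member had 0. The 8 E60 members with exactly 4 rule genes had 7808 CPM and the 83 with more had 3782 CPM. Of the 321 COL1A1 UMIs of E60 members, 160 were in 3 cells with 36 to 43 UMIs of SPP1 and 1 or 2 of C1QA, which are counted among the 77 cells with SPP1. POSTN, a matrix protein of fibroblasts, had 1386 CPM in E60 members, 6551 CPM in other E60 cells and 0 UMIs in E120 members. LUM, a collagen-binding proteoglycan, had 924 CPM, 3372 CPM and 0 UMIs. POSTN, LUM and OGN were among the 5 genes that were lowest at E120 over E60, and in the other cells the log2 ratio between these stages was -7.77 for POSTN and -9.82 for LUM. Of the fibroblast genes, 6 of 6 that passed the minimum were lower in members than in other cells at E60, against 18.4% of all genes, and 6 of 6 at E90, against 13.5%. Epithelial genes had 0 UMIs in E60 members for all 16 of the list. Without members that had UMIs of at least 4 epithelial or 8 fibroblast markers, 89, 4 and 4 members were left, and the genes higher in members numbered 48 at E90 and 145 at E120, in place of 185 and 276. The part of these transcripts in the differences between stages was not tested further.

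Genes of further cell types had few UMIs in most members. Endothelial genes summed to 83.1, 186 and 154 CPM in members at E60, E90 and E120, against 171, 96.4 and 189 CPM in other cells. Mural genes summed to 78.8, 46.4 and 38.6 CPM, against 308, 180.5 and 110 CPM. T, NK and B cell genes summed to 17.5, 116 and 38.6 CPM, against 16.1, 19.4 and 30.1 CPM, with 9 of the 10 E90 UMIs in 1 cell. Mast cell genes summed to 17.5, 476 and 64.3 CPM, against 18.7, 53.6 and 34.8 CPM. At E90, 33 of the 41 mast cell UMIs were FCER1A, the high-affinity IgE receptor, in 1 cell, and that gene is also known from dendritic cells. Haemoglobin HBAI and HBAII had 1255 UMIs in E60 members, of which 1191 were in 1 cell and at most 3 in each other cell. Schwann cell, melanocyte, muscle and megakaryocyte genes each summed to at most 32.8 CPM.

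**Figure D5:**
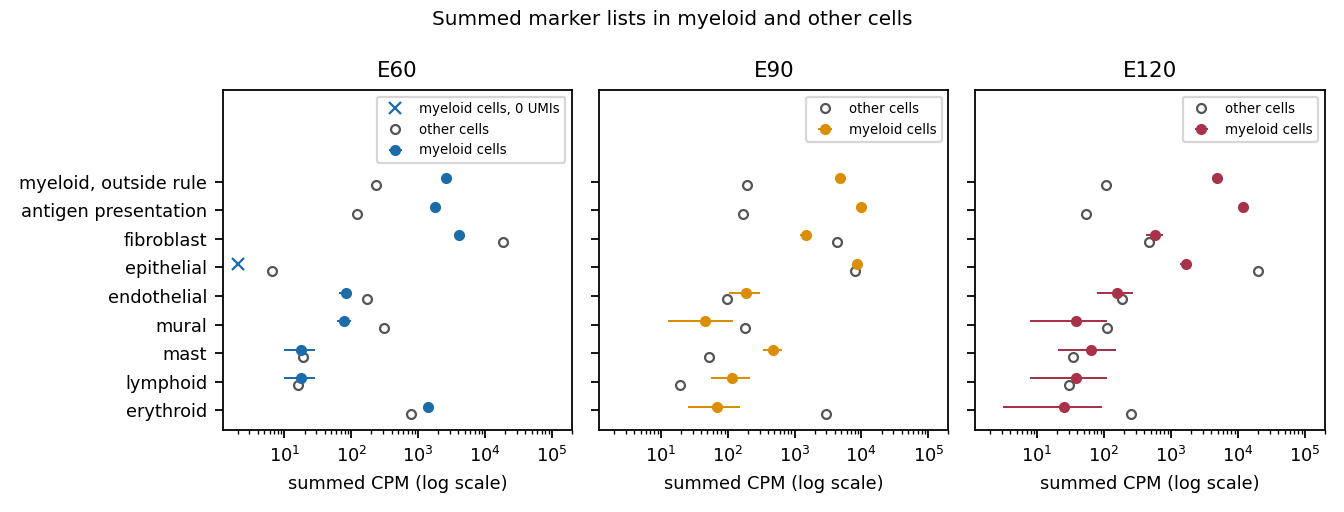
Summed levels of 9 marker lists in CPM (horizontal axis, log scale) in myeloid cells (filled, with exact Poisson intervals for counting error) and in other cells of the same library (open); a cross marks 0 UMIs. Myeloid genes outside the rule and antigen presentation genes lie higher in myeloid cells at each stage, while epithelial genes lie at 8544 against 8015 CPM at E90 and at 1659 against 20333 CPM at E120.

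Cells with DRB3 were also found outside the members. With at least 5 UMIs there were 30 such cells at E60, 28 at E90 and 7 at E120, against 13, 10 and 8 members. Of the 6 E60 cells with exactly 3 rule genes, 4 had DRB3, and AIF1 stood at 926.5 CPM in the 6 while C1QA had 0 UMIs. Among the 30 outside cells of E60, MS4A1, the CD20 protein of B cells, was found in 56.7%, and BTK, a B cell and myeloid kinase, in 76.7%. VPREB1, part of the surrogate light chain of B cell precursors, had 661 CPM in them and was found in 23.3%. At E90, the 28 outside cells had CXCL8 at 2271 CPM and GPR183 at 553.5 CPM, and 8 of them held 2 rule genes and 4 held 3. Members were thus the smaller part of the cells with DRB3 at E60 and E90, while at E120 there were 8 members against 7 outside cells.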

How the data were processed

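The authors deposited 1 table of natural log values per gene and cell. From the values, each is the natural log of 1 plus the UMIs scaled to 10000 per cell, a formula that no label states. The submitters' processing notes name Cell Ranger 3.0.2; aligner settings, genome build, annotation and cell filters are not given in the sources used here. Whole UMIs were recovered for 100% of the 13245017, 9007461 and 14965452 nonzero values (tolerance 0.01), and levels were computed from them. The libraries hold 65049552, 30277663 and 93403291 UMIs. The table holds 20676 cells, 971 more than the 19705 stated.

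Of 16739 genes, 12709 had symbols, 11897 of them found in RefSeq, and 4030 had Ensembl identifiers and are not named. Stages had 1 library each, so none was tested against another. Exact Poisson and Clopper-Pearson 95% intervals cover counting error only. Ratios were log2 of CPM plus 1. A gene was compared when the higher sum had at least 100 CPM and 10 UMIs (20 UMIs over both sums for members against other cells) and called at 2-fold, with rule genes left out. Named genes were the 10 highest ratios per stage with a UMI in at least 20% of members and 5 in each direction between stages. A further 8 in each direction, among genes at least 4-fold higher in members, were chosen after seeing the data. Members and lists were chosen with earlier results of these data known. Doublet calling with Scrublet in scanpy 1.11.5 marked 3, 0 and 1 cells and was not relied on; removing the 6% highest scores was an alternative. Others were the number of rule genes, thinning to 2000 UMIs, scalings, minimum levels and cell filters. The calculations were tested on simulated sums of members and other cells, drawn with counting noise only and no variation between cells. Of unchanged genes, 0%, 4.19% and 7.11% passed 2-fold at E60, E90 and E120. At least 98% of genes changed 4-fold passed in the right direction. Python 3.11.15, numpy 2.4.6, scipy 1.17.1, pandas 2.3.3 and matplotlib 3.10.9 were used.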

Additional observations from a re-analysis of the deposited data

Results flagged for a closer look

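Among the genes named by rule, 3 lay at least 2-fold above other cells at 1 stage and at least 2-fold below them at another. These differences between stages were not tested, and genes outside that rule, such as TGFBI and WNT5A, also did so. CRABP2, a retinoic acid carrier, had a log2 ratio of members over other cells of 3.26 at E120, -2.48 at E60 and -1.13 at E90. At E120, 52 of its 54 UMIs were in the 3 members with under 5 DRB3 UMIs. IGFBP5, which binds insulin-like growth factors, had 3.53 at E120 and -1.41 at E60, and its 60 UMIs at E120 were all in those 3 cells. HS3ST2, a heparan sulfate sulfotransferase, had 3.37 at E60. Its value of -7.22 at E120 rests on 0 UMIs in members and the added 1 CPM, and with the floor of 3 UMIs HS3ST2 was at least 3.83-fold lower there than in other cells.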

How the results depend on the processing

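No paired analysis was possible because each stage has 1 library. The member share, E90, was 0.476% with at least 3 rule genes and 0.115% after thinning to 2000 UMIs. The number of genes higher in members, E90, was 120 with at least 3 rule genes, 44 after thinning and 48 without members with markers of other cells, in place of 185. The genes higher in members, E120, numbered 66 after thinning and 145 without those members, in place of 276. With no minimum CPM the genes higher in members, E60, numbered 832 in place of 203. The genes differing between stages, E90 over E60, then numbered 1615 in place of 451, and the genes differing between stages, E120 over E60, 1636 in place of 443. The genes differing between stages, E120 over E90, numbered 91 after thinning and 200 without members with markers of other cells, in place of 426. The log2 ratio took the opposite sign in 8 values, of which 7 rest on 0 UMIs and the added 1 CPM, below the floor of 3 UMIs, and so show no change of direction. With at least 5 rule genes these were IGFBP5, E120 over E90 (-4.14). Without members with markers of other cells, which left 89, 4 and 4 cells, they were CD83, members over others, E90 (-0.61), IL10, members over others, E120 (-0.53), CD83, E90 over E60 (-3.35), FCER1A, E90 over E60 (-3.50), IL13RA1, E90 over E60 (-2.48), and IL10, E120 over E60 (-5.78). The other was CRABP2, E120 over E60 (-0.35), from 2 UMIs at E120 with at least 5 rule genes. Of 1453 values of single genes under the alternatives, 1255 stayed within a counting range around the reported value and 190 moved beyond it, beside those 8. For ratios this range ran between the outer ends of the Poisson intervals of both sums. It is generally wider than the counting intervals given with the folds. The alternatives on doublet scores, on SPP1 in the totals and on leaving out single cells were chosen after seeing the data.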
